A study of Homo sapiens with 9 samples.

Results

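The 9 genes described here mark the bile duct epithelium or build its keratin skeleton: KRT7, KRT8, KRT18, KRT19, SOX9, EPCAM, MUC1, SPP1 and CFTR. Every probe set assigned to exactly 1 of these symbols was taken, which gave 38 of the 49395 probe sets on the arrays and 9 of 18132 genes. They were measured in HCCC-9810, a human intrahepatic cholangiocarcinoma line, on 9 Affymetrix arrays. There were 3 arrays from cells given siRNAs to BAP1 (si-BAP1), 3 from cells given siRNAs to MBD5 (si-MBD5), and 3 from control cells (si-Control), with total RNA labelled by biotin. BAP1 is a nuclear deubiquitinase and MBD5 a methyl-CpG-binding domain protein that partners the BAP1 deubiquitinase complex, and the arrays ask how the RNA profile differs after each is lowered. The control is named si-Control in the titles and control shRNA in other labels, and which was used is not settled. The labels name 1 cell line and 3 biological replicates a group. The limma p-values rest on the spread of arrays within groups, pooled over all 9 arrays. That spread is also drawn towards the spread of genes of like intensity. Time after transfection and the siRNA sequences are not given in the sources used here.

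Keratins are the intermediate filaments of epithelial cells and form only as pairs of a type I and a type II chain. KRT8 (type II) and KRT18 (type I) are the pair of simple, single-layered epithelia, shared by hepatocytes and bile duct cells, whereas KRT7 (type II) and KRT19 (type I) mark bile duct cells in liver. SOX9 is the transcription factor of the biliary lineage, acting with Notch signalling during duct formation. EPCAM is a surface adhesion molecule, MUC1 a membrane mucin of the apical surface, SPP1 encodes the secreted phosphoprotein osteopontin, and CFTR is the apical chloride and bicarbonate channel that feeds ductal secretion.

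Values are intensities on a linear scale, and a probe set was tested when it averaged above 25.5 over the 9 arrays, a limit that lies at percentile 40 of the arrays' probe sets. The probe set of highest mean stood for its gene, and log2 fold changes were taken after adding 16 to the intensity, which understates changes of dim genes. A gene or probe set is said to have risen or fallen when limma's Benjamini-Hochberg adjusted p, over all features of the fit, was under 0.05. Median intensities were 36.9 to 38.2 on the 9 arrays, and correlations were 0.998 to 0.999 within groups (9 pairs) and 0.996 to 0.998 between groups (27 pairs). The brighter MBD5 probe set read 6.2, 6.2 and 6.11 in si-MBD5 arrays against 7.16, 7.06 and 6.90 in si-Control arrays, all far below the filter, and its difference did not pass without the filter (limma adjusted p = 0.308). BAP1 itself was not analysed here. The 3' over 5' ratio of the ACTB control probe sets, a sign of RNA integrity and labelling, averaged 11.1 ± 0.31 in si-BAP1, 12.3 ± 0.72 in si-MBD5 and 12.2 ± 0.52 in si-Control arrays (SD, n = 3 each). All si-BAP1 arrays (10.8 to 11.4) lay below all si-MBD5 arrays (11.6 to 13.0) and all si-Control arrays (11.8 to 12.8) in that ratio (two-sided exact permutation tests, p = 0.1 for each, the smallest that 3 against 3 allows). For GAPDH the ratio averaged 1.08 ± 0.011 in si-BAP1, 1.07 ± 0.0046 in si-MBD5 and 1.06 ± 0.026 in si-Control arrays (SD, n = 3 each). There the groups overlapped (two-sided exact permutation tests, p = 0.3 for si-BAP1 against si-Control and 0.2 against si-MBD5). The part of either ratio in the results was not tested.

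Of the 9 genes, 5 had a probe set above the filter: KRT7, KRT8, KRT18, SOX9 and MUC1. KRT19, EPCAM, SPP1 and CFTR had none. Of the 38 probe sets, 24 passed: 8 of 8 for KRT8, 12 of 13 for MUC1, 2 of 2 for KRT18, 1 of 1 for KRT7 and 1 of 3 for SOX9. The nearest inside was a MUC1 probe set with a mean of 26.5, and the nearest outside was another MUC1 probe set at 20.7. Of the genes that set bile duct cells apart from hepatocytes, KRT7 and SOX9 were thus above the filter in HCCC-9810, while KRT19, EPCAM, SPP1 and CFTR were below it.

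**Figure D1:**
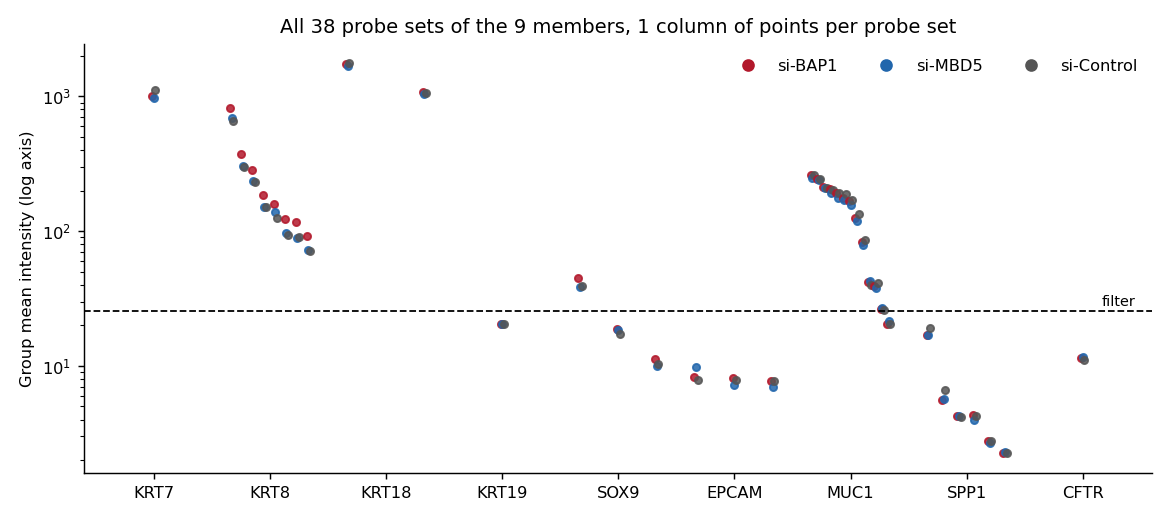
Mean intensity of each group on each of the 38 probe sets (log axis), by gene, with a point each for si-BAP1, si-MBD5 and si-Control arrays and the filter as a dashed line. All KRT7, KRT8 and KRT18 probe sets lie above it and all KRT19, EPCAM, SPP1 and CFTR probe sets lie below it; intensities of different probe sets also depend on their probes.

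KRT8, the type II chain of the simple epithelial pair, was the only one of the 5 tested genes that rose, and it did so with si-BAP1. In RNA from whole cultures, a change in the share of cells of a type and a change in RNA per cell cannot be told apart. On its brightest probe set it read 827, 803 and 842 in si-BAP1 arrays, 647, 719 and 703 in si-MBD5 arrays, and 680.3, 679 and 628 in si-Control arrays. Every si-BAP1 array was above every array of both other groups, while si-MBD5 and si-Control arrays overlapped. The ACTB 3' over 5' ratio also set the si-BAP1 arrays apart from both other groups, while the GAPDH ratio overlapped between groups. The part of these ratios in the KRT8 result was not tested. Against si-Control the log2 fold change with si-BAP1 was 0.31 (SE 0.046, 95% interval 0.21 to 0.41, limma adjusted p = 0.000228), or 1.24-fold. With si-MBD5 it was 0.057 (95% interval -0.042 to 0.156, limma adjusted p = 0.464). The direct comparison of si-BAP1 against si-MBD5 gave 0.25 (95% interval 0.15 to 0.35, limma adjusted p = 0.00325).

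All 8 KRT8 probe sets rose with si-BAP1 against si-Control, by 0.28 to 0.34 on the log2 scale (1.21-fold to 1.27-fold), with limma adjusted p between 0.000318 and 0.00168 in the fit over probe sets. Their arrays did not overlap in 8 of 8, either against si-Control or against si-MBD5 (35.6% and 23.3% of all probe sets did not). The dimmest of the 8 shows the same order: 87.9, 100.4 and 89.3 in si-BAP1 arrays, 70.0, 77.2 and 70.0 in si-MBD5 arrays, and 68.7, 71.5 and 74.9 in si-Control arrays. Against si-MBD5, 7 of 8 rose, and the eighth had a log2 fold change of 0.18 (limma adjusted p = 0.0525). Between si-MBD5 and si-Control the 8 differences ran from -0.033 to 0.133 and none passed (limma adjusted p at least 0.131, with 1 of 8 at an unadjusted p below 0.05). The 8 probe sets are not independent readings: across the 9 arrays they correlated at 0.678 to 0.989 with a median of 0.933 over 28 pairs, and all 8 are of the type whose probes can also match other transcripts. RefSeq lists 52 KRT8 pseudogenes on 18 chromosomes, none of them with a probe set of its own here, so cross-matching to them was not tested. With such probe sets and those shared between transcripts of a family left out, no KRT8 probe set remained.

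**Figure D2:**
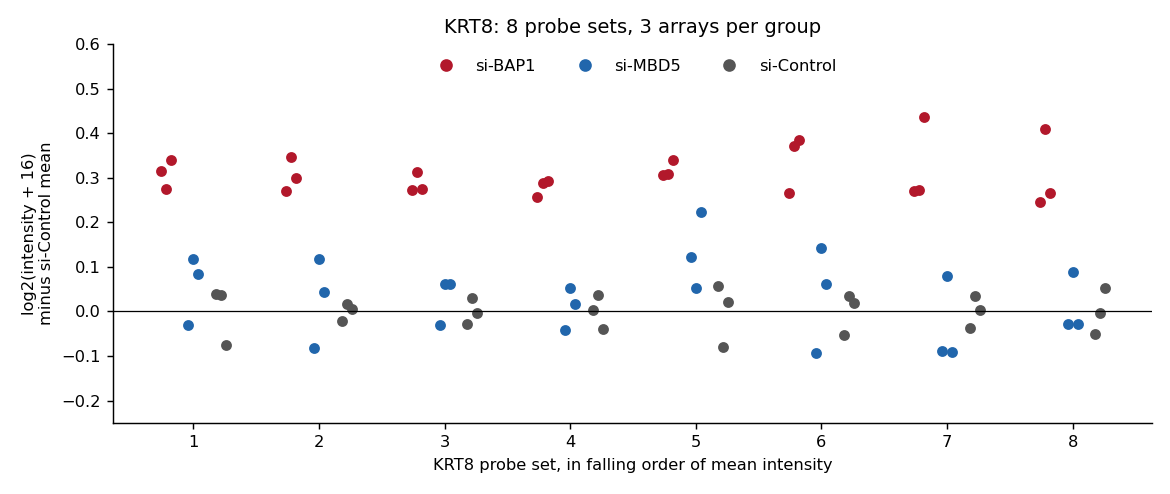
log2(intensity + 16) of each of the 8 KRT8 probe sets minus its si-Control mean, in falling order of mean intensity, with 1 point per array and si-BAP1 left of si-MBD5 and si-Control. In all 8 the si-BAP1 arrays lie above those of the other groups, while si-MBD5 and si-Control arrays overlap.

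The 250 bases before 1 RefSeq start of KRT8 are shown because KRT8 is the member that rose. Those of MUC1 are shown because it has the most probe sets and none of them passed. Both come from RefSeq for GRCh38.p14, 5′ to 3′ on the gene's strand. Promoters of SPP1 and CFTR also matched in the table used, 4 of the 9 members in all. Capitals mark the motifs searched on both strands: a TATA box (TATAAA), a GC box (GGGCGG, with overlapping matches counted), a CCAAT box, an AP-1 motif (TGANTCA) and a SOX motif (ACAATG).
KRT8, chr12:52926470-52926719, minus strand: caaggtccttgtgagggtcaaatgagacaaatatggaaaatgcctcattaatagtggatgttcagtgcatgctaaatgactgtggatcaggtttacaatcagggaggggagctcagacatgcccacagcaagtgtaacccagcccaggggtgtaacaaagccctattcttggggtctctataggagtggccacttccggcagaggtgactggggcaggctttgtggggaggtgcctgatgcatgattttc
MUC1, chr1:155192916-155193165, minus strand: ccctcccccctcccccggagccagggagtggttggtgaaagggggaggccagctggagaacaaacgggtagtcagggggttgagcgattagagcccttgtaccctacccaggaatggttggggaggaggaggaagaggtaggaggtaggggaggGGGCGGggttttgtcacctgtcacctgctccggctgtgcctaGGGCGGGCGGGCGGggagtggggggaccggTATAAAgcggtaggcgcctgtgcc
The KRT8 window held none of the 5 motifs and was 50.4% G or C, against a median of 58.0% over 35116 promoters. The MUC1 window was 66% G or C, with 1 TATAAA that began 24 bases before the start and 4 matches of GGGCGG, 3 of which overlap. Of all promoters of that length, 10.7% held the TATA box, 42.6% the GC box, 32.0% the CCAAT box, 6.57% the AP-1 motif and 9.29% the SOX motif. Matches describe letters in these windows only. Other starts of these genes were not read, and whether the cells use the starts shown was not tested.

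KRT18, the type I partner of KRT8, did not pass the threshold in either knockdown. Its brighter probe set read 1730.4, 1708 and 1737 in si-BAP1 arrays, 1610.5, 1680.0 and 1758 in si-MBD5 arrays, and 1857, 1708 and 1701 in si-Control arrays, and all 3 groups overlapped. The log2 fold change was -0.023 with si-BAP1 (95% interval -0.11 to 0.062, limma adjusted p = 0.744) and -0.060 with si-MBD5 (limma adjusted p = 0.363). On the second KRT18 probe set, means were 1079 ± 13.2, 1036 ± 53.1 and 1054 ± 4.93 in si-BAP1, si-MBD5 and si-Control arrays (SD, n = 3 each). There all si-BAP1 arrays stood above all si-Control arrays, but by a log2 fold change of 0.032 that did not pass (limma adjusted p = 0.629).

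KRT18 lies beside KRT8 on chromosome 12. Of the 5 genes on either side of KRT8, KRT79 and KRT78 were below the filter. KRT76, KRT3, KRT4, EIF4B and TNS2 had no call in si-BAP1, with log2 fold changes of -0.10 to 0.083. With si-BAP1, 2 of the 7 tested besides KRT18 passed (28.6%, where 23.5% of all genes did). SPRYD3 rose by 0.19 with si-BAP1 (limma adjusted p = 0.0105). IGFBP6, which encodes an insulin-like growth factor binding protein, fell by 0.70 with si-BAP1 and by 0.39 with si-MBD5 (limma adjusted p = 1.15e-06 and 0.000335).

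The pair shifted within arrays. KRT8 minus KRT18, on the log2 scale, was -1.05 ± 0.021 in si-BAP1 arrays, -1.27 ± 0.054 in si-MBD5 arrays and -1.38 ± 0.064 in si-Control arrays (SD, n = 3 each). The 3 groups did not overlap in this difference. Only shifts between groups can be read from it, since the probe sets differ, and it was formed after the values were seen and carries no test. For si-BAP1 the difference restates the KRT8 rise, and with si-MBD5 against si-Control neither KRT8 nor KRT18 passed.

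KRT7, the type II keratin that marks bile duct cells, was the only one of the 5 tested genes that fell, and it fell in both knockdowns. It read 955, 1007 and 1050.4 in si-BAP1 arrays, 930.1, 1014 and 994 in si-MBD5 arrays, and 1139, 1146 and 1069 in si-Control arrays. All 6 knockdown arrays were below all 3 si-Control arrays, and the knockdowns overlapped with each other. The log2 fold change was -0.15 with si-BAP1 (SE 0.045, 95% interval -0.25 to -0.056, limma adjusted p = 0.0236), a level 0.899 times that of control. With si-MBD5 it was -0.19 (95% interval -0.28 to -0.092, limma adjusted p = 0.0113), or 0.878 times control. Both comparisons use the same si-Control arrays. Between the knockdowns the difference was 0.035 (95% interval -0.061 to 0.132, limma adjusted p = 0.702).

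The KRT7 fall rests on 1 probe set and few arrays. With si-BAP1, the adjusted p was 0.109 without si-BAP1 replicate 1, 0.0556 without si-BAP1 replicate 2, 0.0849 without si-Control replicate 1 and 0.103 without si-Control replicate 2 (limma). With si-MBD5 it was 0.0592 without si-MBD5 replicate 1 and 0.0619 without si-Control replicate 2 (limma). By probe set, the call with si-MBD5 was also lost without si-Control replicate 1 (limma adjusted p = 0.0626). Of the 5 genes on either side of KRT7 on chromosome 12, 6 were tested, and with si-BAP1 2 rose and 1 fell (50%, where 23.5% of all genes passed). ATG101, of the autophagy initiation complex, fell by 0.14 and NR4A1, a nuclear receptor, rose by 0.15 with si-BAP1 (limma adjusted p = 0.0329 and 0.0271). KRT80, a type II epithelial keratin next to KRT7, was the 1 of the 6 that passed with si-MBD5 (16.7%, where 16.3% of all genes passed). It rose in both knockdowns, with intensities of 102.1 ± 4.48 in si-BAP1, 95.2 ± 1.21 in si-MBD5 and 75.7 ± 2.37 in si-Control arrays (SD, n = 3 each). Its log2 fold change was 0.36 with si-BAP1 and 0.28 with si-MBD5 (limma adjusted p = 5.74e-05 and 0.00101).

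Of the type II chains KRT7 and KRT8, KRT8 thus rose and KRT7 fell with si-BAP1, while with si-MBD5 only KRT7 passed. KRT8 minus KRT7 was -0.28 ± 0.066 in si-BAP1 arrays, -0.50 ± 0.014 in si-MBD5 arrays and -0.74 ± 0.012 in si-Control arrays (log2 scale, SD, n = 3 each), with no overlap between groups. KRT7 minus KRT18 was -0.77 ± 0.067 in si-BAP1, -0.77 ± 0.047 in si-MBD5 and -0.64 ± 0.066 in si-Control arrays. There the 2 knockdowns overlapped and both lay below control. These differences too were formed after the values were seen.

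**Figure D3:**
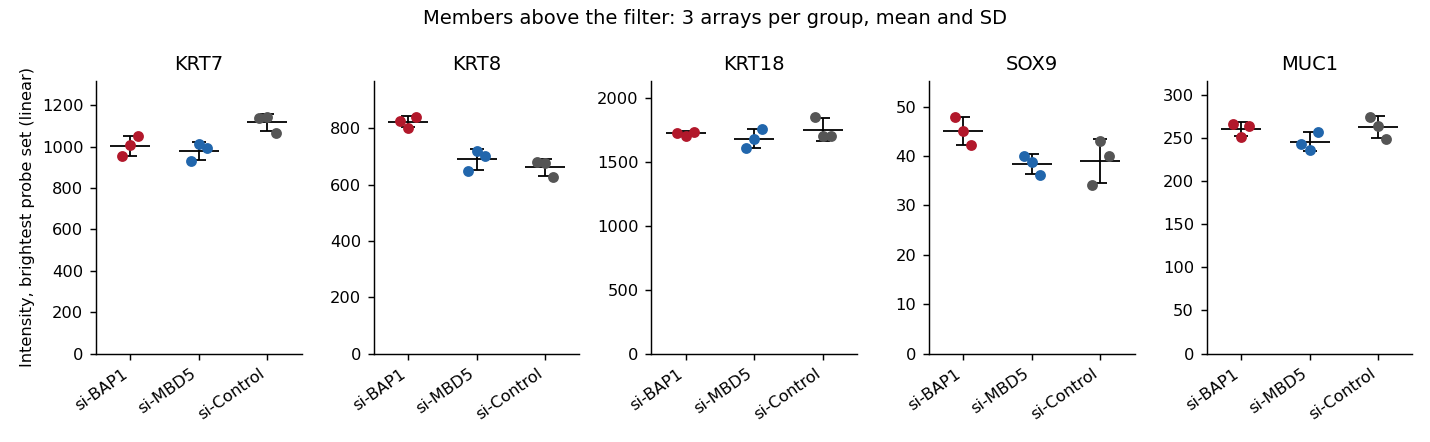
Intensity of the brightest probe set of KRT7, KRT8, KRT18, SOX9 and MUC1 in each array (linear axes from 0), with si-BAP1, si-MBD5 and si-Control from left to right; points are arrays and lines are group means with SD. KRT8 is highest in the 3 si-BAP1 arrays, and KRT7 is lower in all 6 knockdown arrays than in the 3 si-Control arrays.

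KRT19, the type I keratin of bile duct cells, was dim on its 1 probe set: 23.2, 18.4 and 20.2 in si-BAP1 arrays, 20.2, 20.2 and 20.8 in si-MBD5 arrays, and 22.3, 21.2 and 18.4 in si-Control arrays. The groups overlapped, and the mean lay at the 34.2nd percentile of all probe sets. Whether KRT19 RNA is scarce or this probe set hybridises poorly cannot be told apart with 1 probe set.

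SOX9 had 1 probe set above the filter, at the 51.9th percentile. It read 48, 45.1 and 42.2 in si-BAP1 arrays, 40.1, 38.9 and 36.2 in si-MBD5 arrays, and 34.1, 43 and 40 in si-Control arrays. The si-BAP1 arrays lay above all si-MBD5 arrays and overlapped with si-Control. The log2 fold change was 0.15 with si-BAP1 against si-Control (95% interval 0.016 to 0.29, limma adjusted p = 0.105), 0.17 against si-MBD5 (limma adjusted p = 0.124), and -0.015 with si-MBD5 against si-Control (limma adjusted p = 0.913). None passed. The other 2 SOX9 probe sets lay below the filter.

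EPCAM was dim on all 3 of its probe sets, with intensities of 5.87 to 12.2 and percentiles of 12.7 to 15.3. On one of them the si-MBD5 arrays read 8.26, 12.2 and 8.93 and lay above the si-Control arrays at 7.40, 8.16 and 8.15, with si-BAP1 arrays at 7.45, 9.21 and 8.26. The difference did not pass in the fit without a filter (limma adjusted p = 0.266).

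MUC1 did not pass in any comparison, on any of its 13 probe sets, in the fit described above. Under the other settings given below, 9 of 237 of its probe set values passed for si-MBD5 against si-Control. For si-BAP1, 2 of 237 passed against si-Control and 0 against si-MBD5. The brightest read 267, 251 and 265 in si-BAP1 arrays, 243, 237 and 258 in si-MBD5 arrays, and 275, 264 and 249.6 in si-Control arrays, and the groups overlapped. Its log2 fold change was -0.0095 with si-BAP1 against si-Control (limma adjusted p = 0.921), -0.090 with si-MBD5 against si-Control (limma adjusted p = 0.240), and 0.081 for si-BAP1 against si-MBD5 (limma adjusted p = 0.350).

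Over the 12 MUC1 probe sets above the filter, si-BAP1 against si-Control gave -0.091 to 0.048 on the log2 scale, 6 above 0 and 6 below. With si-MBD5 the range was -0.149 to 0.065, with 10 below 0. The lowest adjusted p, 0.0544 by limma, belonged to a probe set that read 125, 125 and 127 in si-BAP1 arrays, 119.5, 119 and 120.4 in si-MBD5 arrays, and 141, 137 and 125 in si-Control arrays. Its si-MBD5 arrays were below all others. In limma, 0 of 12 had an unadjusted p below 0.05 for si-BAP1 against si-Control, 4 for si-MBD5 against si-Control and 2 for si-BAP1 against si-MBD5. For si-BAP1 against si-MBD5, 10 of 12 were above 0, and 4 had si-BAP1 arrays above all si-MBD5 arrays. In that comparison arrays did not overlap, in either direction, in 23.3% of all probe sets. The 12 are readings of 1 gene and are not independent. MUC1 probe sets varied less in step than those of KRT8: their correlations over the 9 arrays were -0.685 to 0.992 with a median of 0.437 over 66 pairs.

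SPP1 had 6 probe sets, all dim, with intensities of 2.19 to 20.0 and percentiles of 0.494 to 30.1. The brightest read 18.4, 15 and 17.5 in si-BAP1 arrays, 18.4, 15 and 17.2 in si-MBD5 arrays, and 20.0, 17.4 and 19.7 in si-Control arrays, which overlapped. CFTR read 11.1, 11.2 and 12.1 in si-BAP1 arrays, 13.1, 8.85 and 12.9 in si-MBD5 arrays, and 12.4, 11.2 and 9.54 in si-Control arrays, at the 20.1st percentile. Over the 14 probe sets below the filter, the lowest adjusted p in the fit without a filter was 0.266 (limma), and 1 of 42 tests had an unadjusted p below 0.05.

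**Figure D4:**
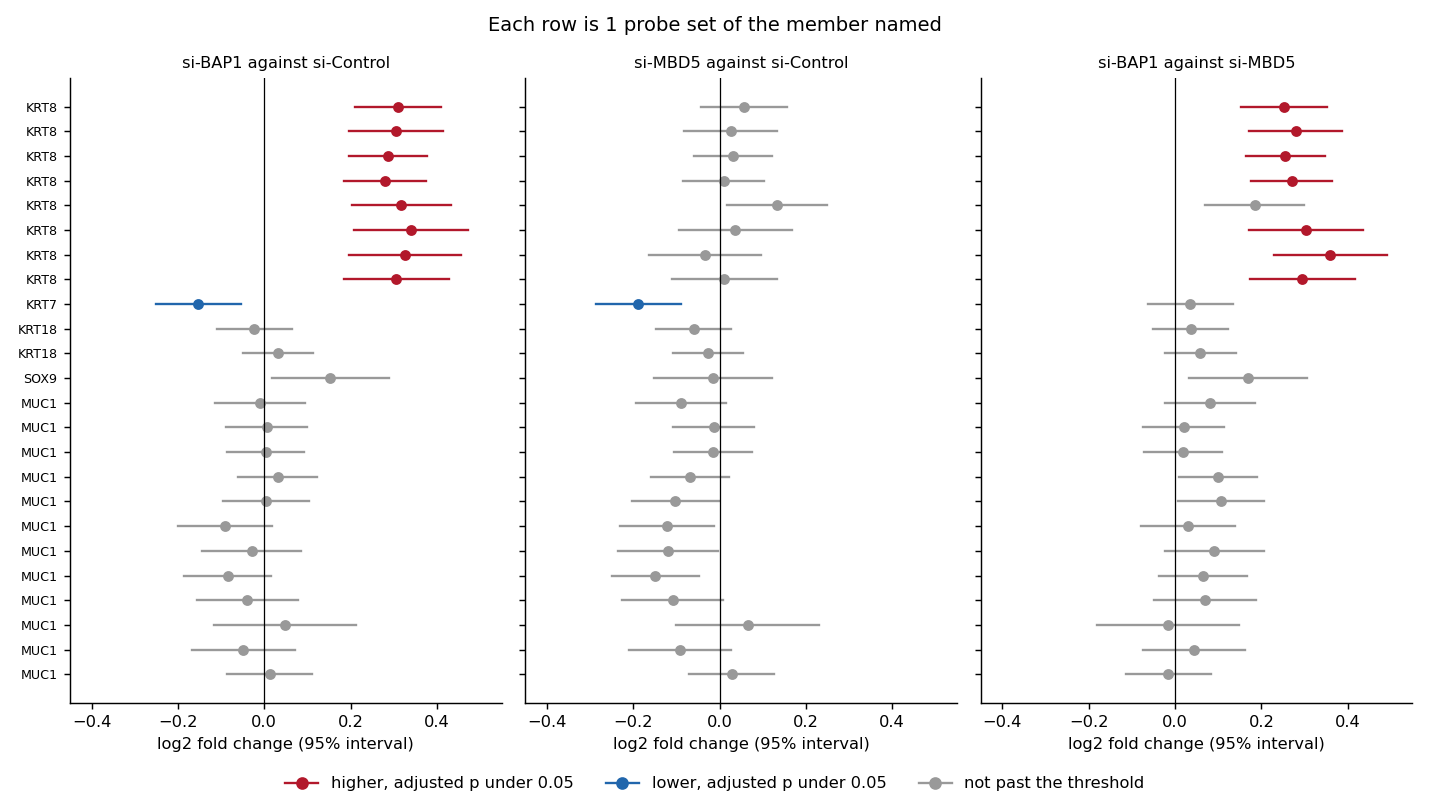
Log2 fold change with its 95% interval for each of the 24 probe sets above the filter, for each knockdown against si-Control and for the knockdowns against each other (si-BAP1 over si-MBD5), coloured by whether it rose, fell or did not pass the threshold. The 8 KRT8 probe sets lie to the right of 0 in both comparisons with si-BAP1 on top, and the 12 MUC1 probe sets lie on both sides of 0 in si-BAP1 against si-Control.

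With si-BAP1 against si-Control, 1 of the 5 tested genes rose and 1 fell, or 40%, where 23.5% of the 12434 genes tested passed (12.4% higher, 11.1% lower). With si-MBD5 against si-Control, 0 rose and 1 fell, or 20%, where 16.3% of all genes passed (7.29% higher, 8.99% lower). For si-BAP1 against si-MBD5, 1 rose and 0 fell, or 20%, where 9.97% of all genes passed (5.76% higher, 4.21% lower). Arrays did not overlap in 2, 1 and 2 of the 5 genes in these comparisons, where 37.5%, 30.4% and 25% of all genes did not. On 5 genes these are counts of 1 or 2, too few to set the group apart from other genes. The median log2 fold change of the 5 was -0.0095, -0.060 and 0.081 in these 3 comparisons, against 0.00047, 8.5e-05 and 0.0030 for all genes. By probe set, 8 of 24 rose and 1 fell with si-BAP1 against si-Control (20.2% of 29584 probe sets passed, 11.4% higher and 8.79% lower), and the 8 were all of KRT8. With si-MBD5 against si-Control 0 rose and 1 fell (12.5% of all, 5.9% higher and 6.65% lower), and for si-BAP1 against si-MBD5 7 rose and 0 fell (7.69% of all, 4.53% higher and 3.16% lower). Probe sets of 1 gene are not independent. Arrays did not overlap in 10, 3 and 13 of the 24 probe sets in these comparisons, where 35.6%, 27.8% and 23.3% of all probe sets did not.

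The gene most alike to KRT8 across the 9 arrays was PRMT7, an arginine methyltransferase (Pearson r = 0.985 on the log2 scale), and next came ELP6, an Elongator subunit (0.983). For KRT7 they were SLC39A10, a zinc transporter (0.974), and PFDN5, a prefoldin subunit (0.973). The closest to KRT18 were TUBB4B, a beta tubulin (0.962), and PITPNM1 (0.956). EPM2AIP1 (0.928) and NSD1, a histone methyltransferase (0.925), were closest to SOX9. MUC1 was followed by RANGAP1, the GTPase activator of Ran (0.953), and LAMP1, a lysosomal membrane protein (0.936). They are the top 2 of 12434 genes over 9 arrays in 3 groups and are given as a description.

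Other genes of bile duct cells were counted from a list of 28, of which 10 were tested. With si-BAP1 2 rose and 1 fell (30%, where 23.5% of all genes passed). With si-MBD5 2 rose and 0 fell (20%, where 16.3% passed). CLDN4, a tight junction claudin, fell with si-BAP1 to 135.6 ± 11.4, against 174.8 ± 13.7 in si-Control arrays (log2 fold change -0.33, limma adjusted p = 0.00185). CD24, a surface glycoprotein of biliary and progenitor cells, rose with si-MBD5 to 375 ± 7.34, against 299.5 ± 10.4 in si-Control arrays (log2 fold change 0.31, limma adjusted p = 0.000165). Its log2 fold change with si-BAP1 was 0.13 (limma adjusted p = 0.0290), a call lost under 6 of 21 alternatives.

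Of 16 tested other keratins, 1 rose and 2 fell with si-BAP1 (18.8%, where 23.5% of all genes passed). With si-MBD5 1 rose (6.25%, where 16.3% passed). KRT80 accounted for both rises. Of 17 tested keratin linkers and desmosome genes, 2 rose and 1 fell with si-BAP1 (17.6%), and 1 rose and 4 fell with si-MBD5 (29.4%). FAM83H, which recruits casein kinase 1 to keratin filaments, fell in both, to 402 ± 11 with si-BAP1 and 428 ± 25.3 with si-MBD5, against 531 ± 20.0 in si-Control arrays (log2 -0.39 and -0.30, limma adjusted p = 4.63e-05 and 0.000727). PKP4, an armadillo protein of junctions, rose in both by 0.33 and 0.29 (limma adjusted p = 0.000235 and 0.00125). EPPK1, a plakin that binds keratin filaments, fell with si-MBD5 by 0.47 (limma adjusted p = 2.52e-05), and had a log2 fold change of -0.14 with si-BAP1 (limma adjusted p = 0.0509). PKP2, a desmosomal plakophilin, rose with si-BAP1 by 0.24 (limma adjusted p = 0.0042). DSG2, a desmosomal cadherin, fell with si-MBD5 to 493 ± 10.4, against 600.5 ± 29.7 in si-Control arrays (log2 -0.27, limma adjusted p = 0.000745).

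Among 29 tested Notch pathway genes, which act with SOX9 in duct formation, 2 rose and 5 fell with si-BAP1 (24.1%). With si-MBD5 1 rose and 4 fell (17.2%). These shares are near the 23.5% and 16.3% of all genes that passed. NOTCH3, a receptor, fell in both by 0.36 and 0.39 (limma adjusted p = 5.00e-05 and 8.02e-05). Its other probe set did not pass in either (-0.11 and -0.067), and the mean of both gave -0.24 and -0.23. MAML2, a coactivator, rose in both by 0.34 and 0.27 (limma adjusted p = 0.000117 and 0.00124). Of 10 tested SOX family genes, SOX6 rose by 0.40 and 0.23 with si-BAP1 and si-MBD5 (limma adjusted p = 6.61e-05 and 0.00597), and SOX4 fell with si-MBD5 by 0.30 (limma adjusted p = 0.00137).

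Of 11 tested genes for EPCAM partners and its cleavage, 1 rose and 3 fell in each knockdown against si-Control. That was 36.4% in each, where 23.5% and 16.3% of all genes passed with si-BAP1 and si-MBD5. CD44, ADAM17 and PSEN2 were the 3 that fell. ADAM17 and PSEN2 are also counted among the Notch pathway genes, and CD44 among the osteopontin receptors below. FHL2, a LIM-domain coregulator that binds the cut intracellular tail of EPCAM, rose to 1207 ± 24.8 with si-BAP1 and 1145 ± 9.34 with si-MBD5, against 893 ± 22.1 in si-Control arrays (log2 0.43 and 0.35, limma adjusted p = 8.33e-07 and 1.22e-05). With si-BAP1, ADAM17, a sheddase that cuts EPCAM, fell by 0.38 (limma adjusted p = 0.000117), and PSEN2, of the gamma-secretase that cuts it further, fell by 0.41 (limma adjusted p = 6.36e-05). With the mean of each gene's probe sets these were -0.25 and -0.21, both still past the threshold. Taken singly, the other ADAM17 probe set did not pass (-0.11). Of the 3 other PSEN2 probe sets (-0.22 to -0.10), 1 fell and 2 did not pass. ADAM17 and PSEN2 also fell with si-MBD5, with log2 fold changes of -0.21 and -0.18 (limma adjusted p = 0.0139 and 0.0274). Those si-MBD5 calls were lost under 2 and 4 of 22 alternatives.

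Of 15 tested mucins and O-glycan enzymes, which glycosylate MUC1, 3 rose and 2 fell with si-BAP1 (33.3%, where 23.5% of all genes passed). With si-MBD5 0 rose and 2 fell (13.3%, where 16.3% passed). GCNT3, a mucin core branching enzyme, fell to 167 ± 2.89 with si-BAP1 and 217 ± 7.04 with si-MBD5, against 257 ± 3.15 in si-Control arrays (log2 -0.57 and -0.23, limma adjusted p = 5.53e-07 and 0.00164). GALNT2 and GALNT1, which start O-glycans, rose with si-BAP1 by 0.23 and 0.19 (limma adjusted p = 0.000774 and 0.00521).

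Of 9 tested osteopontin receptors and proteases, 1 rose and 3 fell with si-BAP1 (44.4%) and 0 rose and 3 fell with si-MBD5 (33.3%). CD44, an osteopontin receptor, fell to 545 ± 21.4 with si-BAP1 and 555 ± 29.7 with si-MBD5, against 744 ± 40.4 in si-Control arrays (log2 -0.44 and -0.41, limma adjusted p = 2.93e-05 and 0.000119). ITGA5, an integrin chain, fell with si-BAP1 by 0.21 (limma adjusted p = 0.00808). Its log2 fold change with si-MBD5 was -0.16 (limma adjusted p = 0.0459), a call lost under 11 of 20 alternatives. Of 19 tested CFTR partners and ductal secretion genes, 3 rose and 1 fell with si-BAP1 (21.1%) and 2 rose and 3 fell with si-MBD5 (26.3%). PRKACB, a catalytic subunit of the kinase that opens CFTR, fell to 257 ± 6.74 with si-BAP1 and 350.4 ± 19.6 with si-MBD5, against 404 ± 3.50 in si-Control arrays (log2 -0.62 and -0.20, limma adjusted p = 5.63e-07 and 0.00741). ADCY9, an adenylyl cyclase that makes its activator cyclic AMP, rose by 0.50 and 0.33 (limma adjusted p = 1.30e-05 and 0.000874). KCNQ1, a potassium channel, rose by 0.28 and 0.25 (limma adjusted p = 0.000273 and 0.00157). With the mean of probe sets, PRKACB gave -0.41 and KCNQ1 0.17 with si-BAP1, both still past the threshold. Over these 9 lists the share of tested genes that passed was 10% to 44.4% with si-BAP1 and 6.25% to 36.4% with si-MBD5, where 23.5% and 16.3% of all genes passed. The lists' median log2 fold changes lay between -0.041 and 0.031 with si-BAP1 and between -0.086 and 0.019 with si-MBD5. By the naming rule, 29 list genes were named for si-BAP1 against si-Control, and 22 of them had other probe sets above the filter. Of those 22, 9 had the same call on all other probe sets, 6 on none, and 0 the opposite call on any. For si-MBD5 against si-Control, 25 were named and 20 had other probe sets, of which 4 had the same call on all, 9 on none, and 0 the opposite call. For si-BAP1 against si-MBD5 it was 3 of 14 on all and 8 on none.

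**Figure D5:**
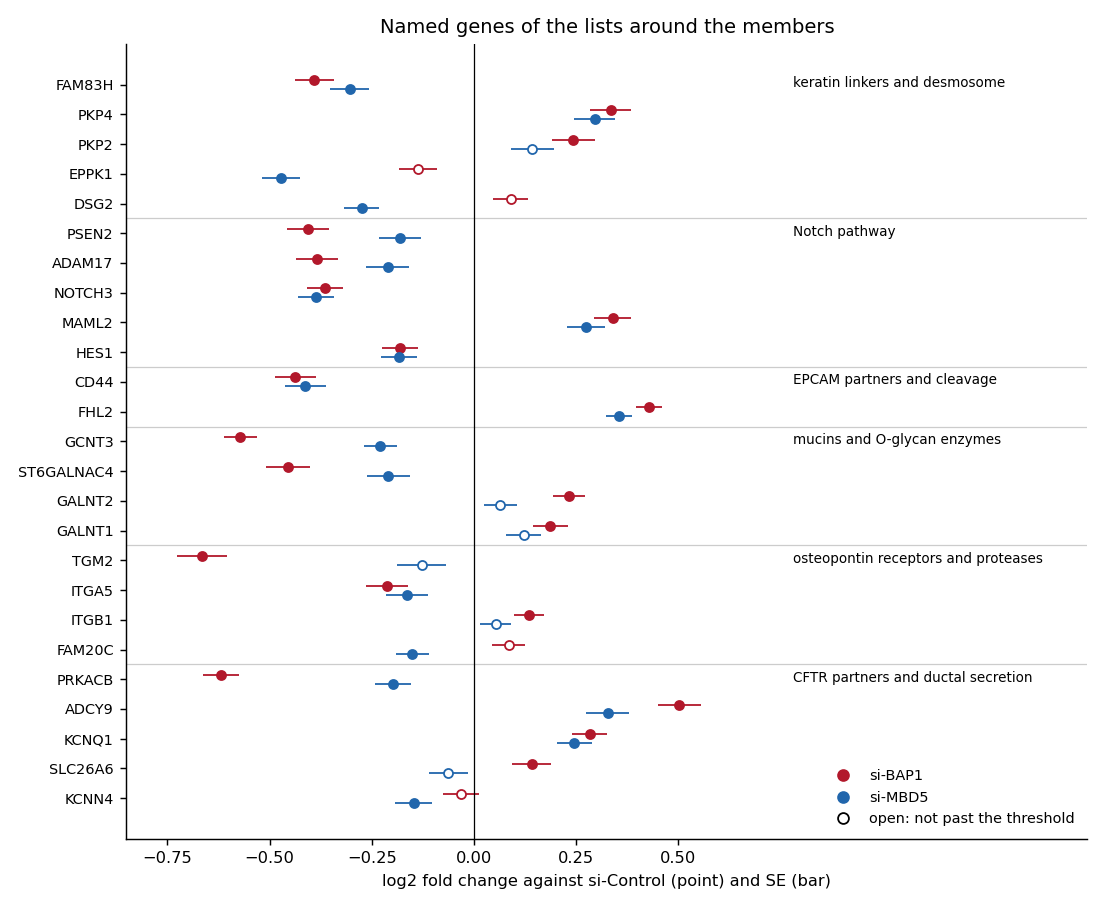
Log2 fold change, with SE as a bar, of named genes of 6 lists in si-BAP1 against si-Control and si-MBD5 against si-Control; filled points passed at an adjusted p under 0.05 and open points did not. FHL2, ADCY9 and MAML2 are above 0 in both, and CD44, GCNT3, PRKACB and FAM83H are below 0 in both.

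Markers of other cell types gave 0 calls in any comparison for hepatocytes (5 tested of 17), squamous epithelium (2 of 8), intestinal epithelium (1 of 5), endothelium (3 of 4) and immune cells (2 of 6). An unadjusted limma p below 0.05 was found for 1 hepatocyte gene in each comparison with si-BAP1 on top and for 1 squamous gene in si-BAP1 against si-MBD5. ALB, the hepatocyte albumin gene, averaged 7.46, 8.05 and 8.62 in si-BAP1, si-MBD5 and si-Control arrays, and PTPRC, of immune cells, 3.39, 3.8 and 3.35. These 2 dim genes do not stand for their lists. Of 16 hepatocyte genes on the arrays 11 were below the filter and 5 above, and of 5 immune genes 3 were below and 2 above. The hepatocyte list summed to 742 to 759 in si-BAP1, 708 to 713 in si-MBD5 and 687 to 725 in si-Control arrays. Of mesenchymal markers (5 tested of 9), PDGFRB and VIM rose with si-BAP1 (40%, where 23.5% of all genes passed) and PDGFRB with si-MBD5 (20%, where 16.3% passed). That list summed to 4446 to 4623 in si-BAP1, 4400 to 4739 in si-MBD5 and 4269 to 4331 in si-Control arrays, mostly from VIM, an intermediate filament protein, at 3568 ± 97.0, 3562 ± 134 and 3332 ± 30.0. The log2 fold change of VIM with si-BAP1 was 0.098 (limma adjusted p = 0.0327), and its call was lost without either of si-BAP1 replicates 2 and 3 or any 1 si-Control array (adjusted p 0.0506 to 0.129, limma), and with median centring, no filter or no intensity trend (0.0635 to 0.113). The si-BAP1 call of PDGFRB was lost without si-BAP1 replicates 1, 2 or 3, si-MBD5 replicate 1, or si-Control replicates 1 or 2 (adjusted p 0.0508 to 0.146, limma). The other PDGFRB probe sets gave no call in either knockdown, at -0.084 and -0.065 with si-BAP1 and -0.024 and 0.034 with si-MBD5. With the mean of its probe sets, PDGFRB was 0.0042 with si-BAP1 and 0.085 with si-MBD5 (limma adjusted p = 0.962 and 0.235), and with si-BAP1 it also missed with quantile normalization and with no filter (0.0606 and 0.0791). The part of these markers in the KRT8 result was not tested.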

How the data were processed

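The authors deposited 1 table of intensity values on a linear scale, with 1 value per probe set and array, made with MAS5 per the submitters' processing notes (version not given in the sources used here). Total RNA was extracted with Trizol and labelled with biotin, per the labels' protocols. Array medians were nearly equal, and no scaling was added. Of 49395 probe sets, 44988 carried a single gene symbol; 1832 carried several, 2473 carried no symbol and 102 were controls. RefSeq matched 44961 symbols (GRCh38.p14), and 27 stayed as deposited. Probe sets averaging above percentile 40 were kept, 16 was added, log2 taken, and 3 group means were fitted to all 9 arrays in limma 3.58.1 (R 4.3.3) with eBayes and an intensity trend (6 residual degrees of freedom), over 12434 genes or 29584 probe sets, with Benjamini-Hochberg adjustment and a threshold of 0.05. Dim probe sets were read from the same fit without the filter. The number of arrays limits the precision. Up to 4 genes a comparison were named from each of 15 gene lists, by highest absolute fold change past the threshold with separated arrays. The text gives those whose call against si-Control held under every alternative, plus VIM and PDGFRB. For ADAM17, PSEN2, ITGA5 and CD24 it also gives the call in the other knockdown, which did not hold under every alternative. The plot shows named genes of 6 lists. The 2 genes most alike to each member were taken by Pearson r. The members and lists were chosen with earlier results of these data known. The fit was run under 22 other settings. These were an added constant of 1, of 64 or none, quantile normalization, median centring, no filter and a filter at percentile 60. Others were a replicate block, array weights, no intensity trend, only the 2 groups compared and the mean of a gene's probe sets. The rest left out probe sets that may match several transcripts, or each array in turn. Those for list genes and neighbours were chosen after seeing the data. Plots came from Python 3.11.15 and matplotlib 3.10.9.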

Additional observations from a re-analysis of the deposited data

How the results depend on the processing

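By gene, the KRT8 rise with si-BAP1 passed under all 21 alternatives that gave a value, both against si-Control (0.27 to 0.33 on the log2 scale, limma adjusted p at most 0.00228) and against si-MBD5 (0.21 to 0.30, at most 0.0223). Over its single probe sets, 160 of 160 values passed against si-Control and 146 of 160 against si-MBD5 (limma adjusted p up to 0.158). The KRT7 fall passed in 18 of 22 with si-BAP1 and in 20 of 22 with si-MBD5 by gene. By probe set it passed in 15 of 20 with si-BAP1 and 17 of 20 with si-MBD5: it also missed without an intensity trend with si-BAP1 (limma adjusted p = 0.0551) and without si-Control replicate 1 with si-MBD5 (0.0626). Leaving out 1 array at a time gave 1 to 2 of the 5 genes called for si-BAP1 and 0 to 1 for si-MBD5, each against si-Control, and 1 for si-BAP1 against si-MBD5. Over the 24 probe sets it gave 8 to 10, 0 to 3 and 7 to 8. Over all genes it gave 2245 to 3175, 1266 to 1972 and 721 to 1328, and over all probe sets 4407 to 6509, 2266 to 3721 and 1186 to 2492. The low counts came without si-Control replicate 2 (1266 genes) and without si-BAP1 replicate 3 or si-MBD5 replicate 1 (759 and 721 genes), and the cause was not tested. Array weights gave 4492 and 3081 genes and 9380 and 5818 probe sets called in si-BAP1 and si-MBD5 against si-Control. The si-MBD5 count of the 24 probe sets was then 7, and it was 2 with median centring or with the filter at percentile 60, and the cause was not tested. Without probe sets that may match several transcripts only KRT7 remained of the 5 genes, which left 1 call in si-BAP1 against si-Control and 0 in si-BAP1 against si-MBD5. A replicate block gave 2, 1 and 1 genes called of the 5, and 2851, 1866 and 1115 of all genes, in the same order of comparisons. Deviations of same-numbered arrays correlated at -0.433 to 0.48, and those of differently numbered arrays at -0.556 to 0.47. With deviations from means of 3 arrays, this cannot tell whether the numbers pair the samples. Of the list genes past the threshold, 21 of 33, 16 of 27 and 7 of 17 kept their call under every alternative in these comparisons, and MAML1, in si-BAP1 against si-MBD5, turned to -0.12 without probe sets that may match several transcripts. Of 1743 values of single members under alternatives, 52 changed sign, all of them values near 0 that had not passed. With array weights these were 0.0046 for KRT18, 0.0022 for 1 KRT18 probe set and -0.011 for 1 MUC1 probe set in si-BAP1 against si-Control, and -0.029, -0.018, -0.0061 and -0.025 for 4 KRT8 probe sets in si-MBD5 against si-Control. With the mean of a gene's probe sets these were 0.0043 for KRT18 in si-BAP1 against si-Control. With median centring these were -0.00090 for 1 MUC1 probe set in si-BAP1 against si-Control, and -0.0026 and -0.00063 for 2 KRT8 probe sets in si-MBD5 against si-Control. With quantile normalization these were -0.012, -0.014 and -0.013 for 3 MUC1 probe sets in si-BAP1 against si-Control, and 0.0019 for 1 MUC1 probe set in si-MBD5 against si-Control, and -0.014 and -0.012 for 2 MUC1 probe sets in si-BAP1 against si-MBD5. Leaving out 1 array at a time gave ranges across 0. In si-BAP1 against si-Control these were -0.045 to 0.017 for KRT18, -0.044 to 0.022 for MUC1 and -0.079 to 0.015, -0.0032 to 0.0084, -0.037 to 0.032 and -0.042 to 0.11 for 4 MUC1 probe sets. In si-MBD5 against si-Control these were -0.064 to 0.0085 for 1 KRT18 probe set, -0.012 to 0.035, -0.019 to 0.080, -0.027 to 0.037 and -0.017 to 0.10 for 4 KRT8 probe sets, -0.047 to 0.024 and -0.040 to 0.013 for 2 MUC1 probe sets and -0.081 to 0.036 for SOX9. In si-BAP1 against si-MBD5 these were -0.0010 to 0.070 for KRT7 and -0.018 to 0.053, -0.010 to 0.043, -0.015 to 0.073, -0.11 to 0.042 and -0.032 to 0.012 for 5 MUC1 probe sets. The median SE of a log2 fold change was 0.051. The procedure was tested on simulated data for si-BAP1 against si-Control on 12434 genes, with 50 genes changed by each size. It found 4% of changes of 0.1, 70% of 0.25 and 98% of 0.5, so shifts near 0.1 were mostly missed there. Far fewer genes were changed than the 2918 that passed in the data. That makes the adjusted threshold harder to pass in the simulation, so its shares may understate those of the real fit.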

Other observations

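Exact repeats of an intensity value were common in the deposited table. Between any 2 arrays, 3.77% to 5.49% of values were identical across groups and 4.26% to 5.18% within groups. All 3 arrays of a group held the same value in 399 of the 29584 probe sets tested (1.35%). Of the 24 tested member probe sets, 1 did so: a MUC1 probe set that read 211, 209 and 213 in si-BAP1 arrays, 199, 209 and 216 in si-MBD5 arrays, and 210.4 in all 3 si-Control arrays. At least 2 equal arrays in a group were found in 7 of the 24 (29.2%), where 21.3% of all tested probe sets had them. The cause was not tested.

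Of the 5 genes on either side of SOX9 and of MUC1, 17 were tested. With si-BAP1 2 rose and 4 fell (35.3%, where 23.5% of all genes passed), and with si-MBD5 2 rose and 3 fell (29.4%, where 16.3% passed). EFNA1, an ephrin ligand near MUC1, had a log2 fold change of 0.38 with si-BAP1 and 0.23 with si-MBD5 (limma adjusted p = 6.94e-05 and 0.00499). ABCA5, a membrane transporter near SOX9, fell by 0.39 with si-BAP1 and by 0.30 with si-MBD5 (limma adjusted p = 0.000128 and 0.00156). The others were ABCA10 (0.33), VCF1 (-0.30), MAP2K6 (-0.19) and SCAMP3 (-0.17) with si-BAP1, and SLC39A11 (0.28), MAP2K6 (-0.19) and SCAMP3 (-0.22) with si-MBD5, as log2 fold changes. EFNA1 and ABCA5 were chosen after their values were seen.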
